A study of Mus musculus with 20 samples.

Results

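Bile acid synthesis and transport were examined through 10 genes of the hepatocyte, selected by gene symbol from the 55421 genes in the count table: Cyp7a1, Cyp8b1, Cyp27a1, Cyp7b1, Slc27a5, Baat, Slc10a1, Slco1b2, Abcb11 and Abcc2. Each symbol matched 1 identifier, and all 10 genes passed the filter of at least 10 counts in total. The 20 libraries were poly(A) RNA-seq of bulk liver from wildtype C57BL/6 mice, labelled female, in 4 groups of 5. Every mouse was injected at 6 months of age with AAV8-Tbg-saCas9, a virus in which the hepatocyte-specific Tbg promoter drives the Cas9 of Staphylococcus aureus. The virus also carried a guide RNA against Hira (sgRNA-HIRA, the HIRA livers) or against the neutral Rosa26 locus (sgRNA-Rosa26, the control livers). Livers were harvested 3 weeks or 6 months after injection, which gives the groups Rosa26 3 weeks, HIRA 3 weeks, Rosa26 6 months and HIRA 6 months. All groups therefore received Cas9 and a guide, and editing is directed to cells in which Tbg is active, so that other liver cells in the bulk sample carry an unedited Hira gene. The labels give the mice as female, and the study's text names both sexes for these time points in different places.

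Bile acids are made from cholesterol in hepatocytes and are the main route by which the body disposes of cholesterol. The classic pathway starts with CYP7A1 and branches at CYP8B1 towards cholic acid, while the alternative pathway starts with CYP27A1 and continues with CYP7B1. The products are activated to CoA thioesters by the enzyme from Slc27a5 and joined to taurine or glycine by the enzyme from Baat. Transporters of the basolateral membrane then recover bile acids from portal blood, and ATP-driven pumps of the canalicular membrane secrete them into bile.

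The libraries held 19916430 to 24079736 counts. Replicate 5 of HIRA 6 months departed from its label as female. It held 9 counts of Xist and 2041 counts of the Y-linked genes Ddx3y, Eif2s3y, Kdm5d and Uty, where the other 19 libraries held 6286 to 8436 and 0 to 13. The guide comparison at 6 months is therefore given with and without it. The targeted gene Hira had 87 to 127 counts in the HIRA livers and 128 to 171 in the control livers at 3 weeks, and 109 to 136 against 105 to 157 at 6 months. Hira had a log2 fold change of -0.48 ± 0.14 at 3 weeks (adjusted p by edgeR 0.197), without overlap, and -0.10 ± 0.14 at 6 months (0.794), with overlap. A cut need not lower the level of the transcript, so Hira is a weak check of the labels in bulk liver. Markers of the hepatocyte (Alb, Apoa1, Ttr, Serpina1a and Hnf4a) were all detected and summed to 77701 to 155730 CPM per library, where CPM are read counts scaled to library size with TMM factors. Of 3 genes typical of the ileum, Fgf15 had 0 counts and Fabp6 at most 1 in any library, while Slc10a2, which bile ducts also express, had 234 to 1432.

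Between guides, Slc27a5 was the one gene of the 10 whose groups did not overlap, and it was lower in HIRA livers at both times. Over all genes tested, the groups of 2.69% did not overlap at 3 weeks and of 3.15% at 6 months. With all libraries edgeR called Slc27a5 at neither time (adjusted p 0.283 and 0.0545). The first enzymes of both synthesis routes and all 4 transporters overlapped between guides. Cyp7a1 and Cyp8b1 varied most from liver to liver and Baat least, with or without HIRA 6 months replicate 5. Cyp7b1 came next over the 20 libraries, with an SD of 0.67 log2 CPM, but this rested on that library, without which its SD was 0.30, below the 0.38 of Slc10a1.

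The order of the 10 genes was read from CPM per kilobase of exon, averaged over the 20 libraries. Slc27a5 stood highest at 437 ± 64.4 CPM per kb (SD, n = 20), followed by Slc10a1 at 243 ± 51.8 and Cyp27a1 at 219 ± 34.0. Slco1b2 (130 ± 16.4), Abcb11 (122 ± 15.8) and Baat (116 ± 10.3) lay close together, and Cyp8b1 (70.3 ± 35.6) and Abcc2 (49.6 ± 7.16) came next. Cyp7a1 (12.6 ± 6.29) and Cyp7b1 (11.2 ± 10.7) stood lowest. The order of neighbours held in 20 of 20 libraries for Slc27a5 over Slc10a1, Cyp27a1 over Slco1b2 and Abcc2 over Cyp7a1. It held in only 13 for Abcb11 over Baat, 14 for Cyp7a1 over Cyp7b1, 15 for Slc10a1 over Cyp27a1 and for Cyp8b1 over Abcc2, 16 for Slco1b2 over Abcb11, and 18 for Baat over Cyp8b1, so these neighbours overlapped.

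**Figure D1:**
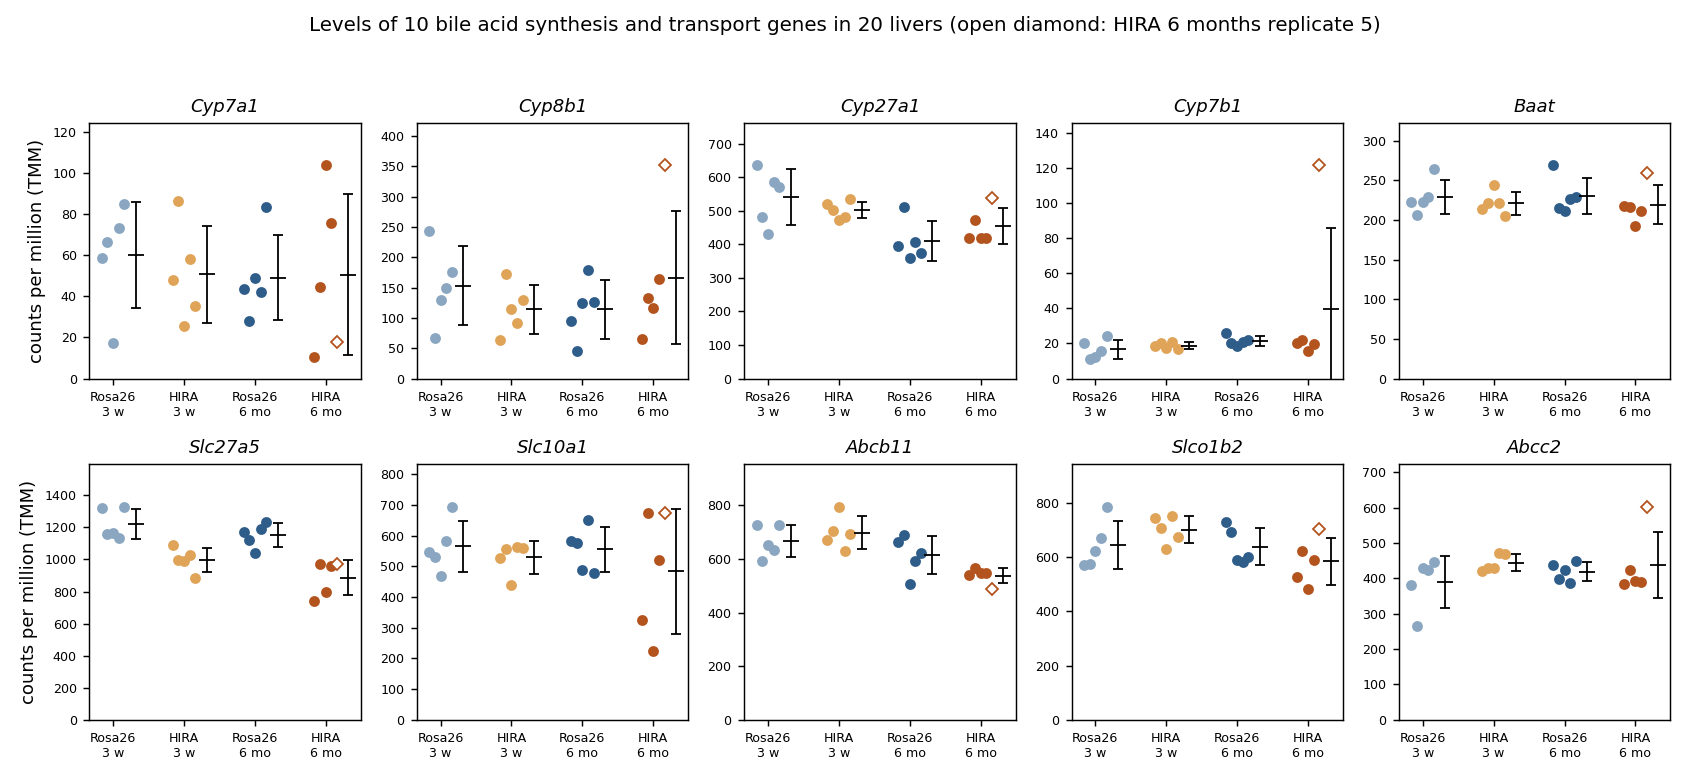
CPM (TMM-scaled) of each of the 10 genes in every library, by group, on linear axes from 0. Dots are single livers, the open diamond is HIRA 6 months replicate 5, and bars give the mean and SD of the 5 livers, with the part of the Cyp7b1 bar below 0 not drawn. The Slc27a5 dots of the HIRA livers lie below those of the controls at both times, while Cyp7a1 spans 10.5 to 104 CPM within HIRA 6 months alone.

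At 3 weeks, none of the 10 genes differed between guides at an edgeR adjusted p under 0.05, against 0.197% of all genes tested. DESeq2 and limma-voom also called 0 of the 10, against 1.56% of the genes with an adjusted p in DESeq2 and 0.101% of all genes in limma-voom. By edgeR 1 of 10 had an unadjusted p under 0.05, against 8.87% of all genes. In 1 of 10, Slc27a5, the groups did not overlap, which held for 2.69% of all genes. The median log2 fold change of the 10 genes was -0.07, beside -0.01 over all genes tested.

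At 6 months, edgeR with all libraries again called 0 of the 10 genes, against 1.31% of all genes, while DESeq2 and limma-voom each called 1, Slc27a5. DESeq2 called 6.22% of the genes to which it gave an adjusted p, and limma-voom 1.3% of all genes. Unadjusted p-values under 0.05 were found for 2 of 10 (15.5% of all genes), and the groups did not overlap for 1 of 10 (3.15%). Without HIRA replicate 5, edgeR called 1 of 10, Slc27a5, lower in HIRA livers, against 1.74% of all genes, and DESeq2 also called 1, Slc27a5, against 8.16% of the genes with an adjusted p. In that fit 1 of 10 had an unadjusted p under 0.05 (17.7% of all genes), and the groups did not overlap for 1 of 10 (5.72%). The median log2 fold change of the 10 genes was -0.01 with all libraries and -0.14 without replicate 5, beside 0.03 over all genes in both fits. The study further asked for an absolute log2 fold change above 1, and none of the 10 met both thresholds in any comparison.

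Slc27a5 encodes the bile acyl-CoA synthetase, the enzyme that activates bile acids before they are conjugated (ENSMUSG00000030382.15, chromosome 7, 12988346 to 12998192, minus strand, GRCm38). Among control livers at 3 weeks, replicates 1 to 5 had 1321, 1156, 1167, 1134 and 1330.1 CPM. The HIRA livers at 3 weeks had 1091, 998, 991, 1029 and 885 CPM. Every HIRA library was thus below every control library at 3 weeks.

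At 6 months the Rosa26 livers had 1170.1, 1122, 1041, 1189 and 1234 CPM of Slc27a5. The HIRA livers had 742, 969, 796, 957 and 971 CPM, and again every HIRA library was below every control. The 5 control livers of one time are not those of the other, so both comparisons rest on separate animals. Replicate 5 was the highest of the HIRA livers at 6 months, and it too lay below the lowest control.

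The log2 fold change of Slc27a5 was -0.29 ± 0.10 (SE, n = 5 per group) at 3 weeks, with an adjusted p of 0.283 by edgeR, a level 0.818 times that of the controls. At 6 months it was -0.38 ± 0.10, with an adjusted p of 0.0545 by edgeR, a level 0.771 times that of the controls. Without HIRA replicate 5 it was -0.41 ± 0.10 (n = 4 against 5), and the adjusted p of 0.0377 by edgeR passed the threshold. The call was lost when only the libraries of the comparison were fitted (adjusted p by edgeR 0.165), with a log2 fold change of -0.41. With all libraries the 6-month adjusted p ranged from 0.00147 with DESeq2 to 0.205 with only the samples of the comparison. The guide effects at both times differed by -0.09 ± 0.14 (adjusted p by edgeR 0.953), less than the error of that difference. The gene ranked at 519 by p among 22867 genes at 3 weeks and at 328 at 6 months.

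The level of Slc27a5 in bulk liver cannot separate fewer hepatocytes from less of the transcript per hepatocyte. The summed level of the 5 hepatocyte markers was 117570 to 155730 CPM in HIRA and 89058 to 138560 in control livers at 3 weeks, and 96719 to 135600 against 77701 to 114670 at 6 months. Most of that sum was Alb (albumin), at 104860 to 141260 CPM in the HIRA livers at 3 weeks, so the sum says little of the other 4 markers. At 3 weeks the log2 fold change was 0.28 ± 0.17 for Alb (adjusted p by edgeR 0.707), -0.46 ± 0.16 for Apoa1, an apolipoprotein (0.345), and -0.28 ± 0.13 for Serpina1a, a secreted protease inhibitor (0.539). The median over the 5 markers was -0.11 at 3 weeks and 0.18 at 6 months, or 0.09 without HIRA replicate 5. At 3 weeks 2 of the 5 were positive and 3 negative, and 2 had an unadjusted edgeR p under 0.05 (8.87% of all genes). At 6 months all 5 were positive, from 0.01 to 0.35, and 1 had an unadjusted edgeR p under 0.05 (15.5%). Without HIRA replicate 5, 4 were positive and 1 negative. At 3 weeks the median log2 fold changes of the other cell types were 0.07 for 5 stellate, 0.14 for 5 lymphocyte, 0.13 for 3 endothelial, 0.0035 for 5 cholangiocyte and 0.01 for 5 Kupffer cell markers. At 6 months with all libraries they were 0.51, 0.30, 0.32, 0.22 and -0.26 in the same order. Without HIRA replicate 5 they were 0.65 for 5 stellate, 0.53 for 5 lymphocyte, 0.44 for 3 endothelial, 0.41 for 5 cholangiocyte and -0.02 for 5 Kupffer cell markers, against 0.03 over all genes tested. Of these markers DESeq2 called Dcn and Stab2, both higher, and edgeR called 0, with an unadjusted p under 0.05 for 3 stellate, 2 endothelial, 1 lymphocyte and 1 cholangiocyte marker. The part of these cell types in the Slc27a5 values was not tested. At 3 weeks genes of the circadian clock also differed between the groups: Dbp, an output factor of the clock, had 9.05 to 104 CPM in HIRA livers and 1.52 to 3.54 in controls, and 5 of the 10 clock genes listed rose in the edgeR test (7 called by DESeq2, 1 of them lower, and 1 by limma-voom), against 0.197% of all genes. For 7 of the 10 clock genes the groups did not overlap (2.69% of all genes), and 9 had an unadjusted edgeR p under 0.05 (8.87%). When 1 library was left out, edgeR called 0 to 5 of the 10, and 4 to 57 genes over all genes tested. The part of the clock genes in the 3-week value of Slc27a5 was not tested. At 6 months edgeR called 0 of the 10 clock genes, DESeq2 and limma-voom also 0, and none had an unadjusted p under 0.05.

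Baat encodes the enzyme that joins activated bile acids to taurine or glycine (ENSMUSG00000039653.9, chromosome 4, 49489422 to 49506557, minus strand). It was the steadiest of the 10 genes, with a SD of 0.12 log2 CPM over the 20 libraries, at percentile 10.3 of the 12903 genes with a mean of at least 1 CPM. Its mean was 229 ± 21.4 CPM in Rosa26 and 221 ± 14.3 in HIRA livers at 3 weeks, and 230.2 ± 22.9 against 219 ± 24.2 at 6 months (SD, n = 5). The log2 fold change was -0.05 ± 0.09 at 3 weeks (adjusted p by edgeR 0.945) and -0.07 ± 0.09 at 6 months (0.778), or -0.14 ± 0.09 without HIRA replicate 5 (0.443). The partner enzyme of Slc27a5 in conjugation thus showed no detectable difference between guides.

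Cyp7a1 encodes cholesterol 7-alpha-hydroxylase, the rate-limiting enzyme of the classic pathway (ENSMUSG00000028240.2, chromosome 4, 6265612 to 6275633, minus strand). The Rosa26 livers at 3 weeks had 58.3, 66.3, 17.1, 73.1 and 84.8 CPM, and the HIRA livers 48.0, 86.2, 25.6, 58.0 and 35.2. At 6 months the Rosa26 livers had 43.3, 27.7, 48.7, 41.9 and 83.4 CPM, and the HIRA livers 10.5, 44.5, 104, 75.5 and 17.9. The groups overlapped over most of their range at both times.

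The log2 fold change of Cyp7a1 was -0.24 ± 0.49 at 3 weeks (adjusted p by edgeR 0.956), 0.04 ± 0.49 at 6 months (0.991) and 0.25 ± 0.48 without HIRA replicate 5 (0.840). These standard errors were the largest of the 10 genes. Over the 20 libraries its SD was 0.89 log2 CPM, at percentile 97.6 among the 12903 genes averaging 1 CPM or more, and the coefficient of variation within HIRA 6 months was 77.7%. At 6 months the sign of the fold change turned with single livers, from -0.40 without HIRA replicate 3 to 0.32 without Rosa26 replicate 5. It also turned with the processing, as the other settings gave -0.36 to 0.11. In HIRA 6 months replicates 1 to 5, the clock gene Dbp had 3.75, 40.4, 20.5, 110.1 and 115 CPM, and Cyp7a1 had 10.5, 44.5, 104, 75.5 and 17.9. Replicate 1 was lowest for both genes. Replicate 5, the library with Y-linked counts, had the highest Dbp and the next lowest Cyp7a1. The hour of harvest was not given in the sources used here, and its part in the spread of Cyp7a1 was not tested.

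Cyp8b1 encodes sterol 12-alpha-hydroxylase, which sets the share of cholic acid among the products (ENSMUSG00000050445.4, chromosome 9, 121914356 to 121916305, minus strand). Its promoter is printed because HNF4A, a nuclear receptor of the hepatocyte, is known to act on this gene. The window runs from 250 bases before to 50 after the start site (RefSeq, GRCm38.p6, chr9:121916256-121916555, minus strand). The capitals mark the 9 letters CAAAGTCCA of an HNF4A-type repeat, which begin 67 bases before the start site, and the 6 letters TATAAA, which begin 31 bases before it.
Cyp8b1: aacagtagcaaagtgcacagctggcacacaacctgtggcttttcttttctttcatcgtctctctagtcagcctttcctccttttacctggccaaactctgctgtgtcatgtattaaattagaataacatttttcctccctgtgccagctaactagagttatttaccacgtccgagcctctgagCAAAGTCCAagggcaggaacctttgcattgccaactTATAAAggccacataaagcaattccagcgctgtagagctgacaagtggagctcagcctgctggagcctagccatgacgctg
Of 32851 promoters of this length, 0.475% hold CAAAGTCCA and 13.6% hold TATAAA on either strand. A match of letters is a description of the window and not evidence of binding.

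Cyp8b1 had 244, 67.4, 130, 149 and 176 CPM in the Rosa26 livers at 3 weeks, and 63.8, 172, 115, 92.2 and 130 in the HIRA livers. At 6 months the Rosa26 livers had 95.2, 46.0, 125, 179 and 126 CPM, and the HIRA livers 65.5, 133, 117, 165 and 352. The highest value of all 20 was that of HIRA 6 months replicate 5, and the groups overlapped at both times. Between guides it had a log2 fold change of -0.42 ± 0.39 at 3 weeks (adjusted p by edgeR 0.856) and 0.54 ± 0.39 at 6 months (0.551). Without HIRA replicate 5 the 6-month value was 0.07 ± 0.35 (0.947), so the larger value rested on that library. The change of the guide effect between times was 0.96 ± 0.56 (adjusted p by edgeR 0.808), and 0.49 without that library (0.863).

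Cyp27a1 encodes the mitochondrial sterol 27-hydroxylase that opens the alternative pathway (ENSMUSG00000026170.6, chromosome 1, 74713574 to 74737892, plus strand). The Rosa26 livers had 636, 481, 432, 586 and 571 CPM at 3 weeks and 396, 511, 361, 408 and 376 at 6 months. The HIRA livers had 520, 502, 473, 483 and 534 CPM at 3 weeks, and 419, 472, 420, 419 and 540 at 6 months. Between guides the log2 fold change was -0.11 ± 0.11 at 3 weeks (adjusted p by edgeR 0.877) and 0.15 ± 0.11 at 6 months (0.590), or 0.08 ± 0.11 without HIRA replicate 5 (0.793). No difference between guides was detectable for this gene.

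Cyp7b1 encodes oxysterol 7-alpha-hydroxylase, whose liver level is known to be higher in male than in female mice (ENSMUSG00000039519.6, chromosome 3, 18071950 to 18243338, minus strand). It ranged from 11.3 to 25.7 CPM in 19 libraries. HIRA 6 months replicate 5, the library with Y-linked counts, stood apart at 122 CPM, while the other 4 livers of its group had 15.6 to 21.9. At 6 months the log2 fold change was 0.89 ± 0.41 with all libraries (adjusted p by edgeR 0.303) and -0.15 ± 0.17 without that library (0.714), a change of sign. DESeq2 gave no adjusted p for Cyp7b1 with all libraries. At 3 weeks the log2 fold change was 0.16 ± 0.42 (adjusted p by edgeR 0.967), with 11.3 to 24.2 CPM in control and 16.8 to 21.1 in HIRA livers.

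**Figure D2:**
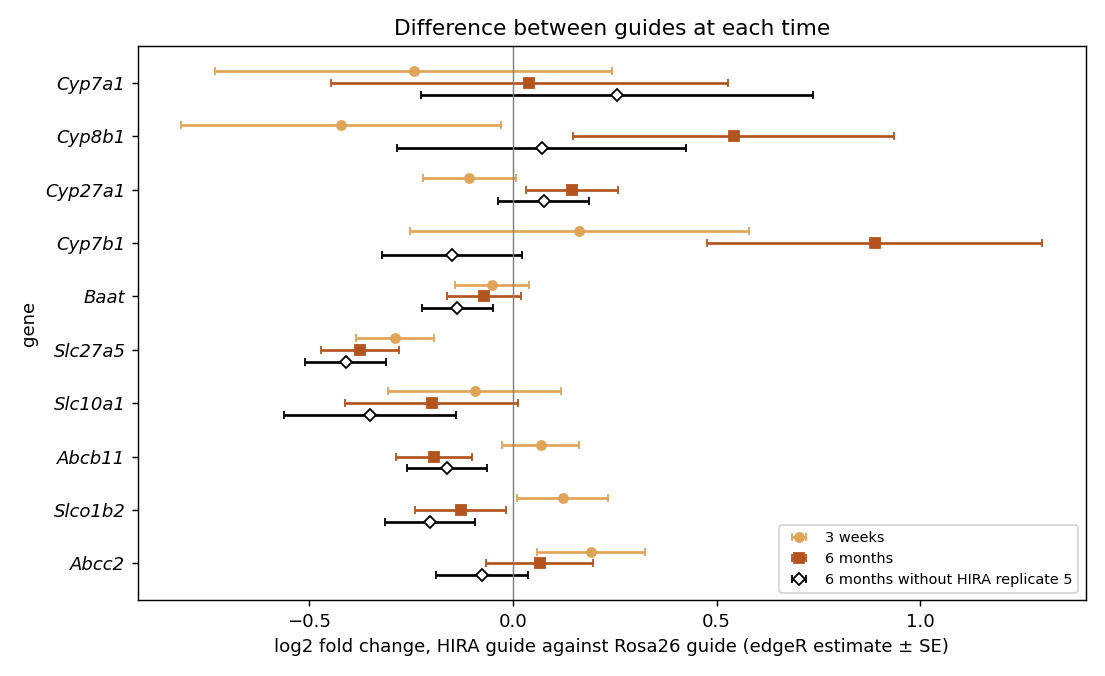
Log2 fold change of each gene, HIRA guide against Rosa26 guide, with the edgeR estimate and its SE, at 3 weeks (circles), at 6 months (squares) and at 6 months without HIRA replicate 5 (open diamonds). Slc27a5 lies at -0.29, -0.38 and -0.41 with short bars, while Cyp7b1 and Cyp8b1 move from 0.89 to -0.15 and from 0.54 to 0.07 once replicate 5 is left out.

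Slc10a1 encodes NTCP, the sodium-dependent carrier that takes conjugated bile acids up from blood (ENSMUSG00000021135.8, chromosome 12, 80953183 to 80968705, minus strand). One of its start sites is printed because it holds a D-box, the element bound by Dbp and Tef, the clock factors that differed at 3 weeks. The capitals mark that D-box, TTATGCAA read on the other strand, which spans the start site of the window (RefSeq, GRCm38.p6, chr12:80968030-80968329, minus strand).
Slc10a1: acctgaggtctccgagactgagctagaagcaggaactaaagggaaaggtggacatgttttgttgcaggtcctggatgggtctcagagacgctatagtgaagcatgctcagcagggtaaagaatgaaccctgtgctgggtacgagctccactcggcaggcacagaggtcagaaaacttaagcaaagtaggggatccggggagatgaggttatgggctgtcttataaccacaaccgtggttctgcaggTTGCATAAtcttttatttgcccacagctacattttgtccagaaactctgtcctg
Of 32851 promoters, 0.743% hold these letters. As for Cyp8b1, the match describes the window and is not evidence of binding. Whether this start site was used in these livers was not tested. Windows were matched for 6 of the 10 genes (Cyp8b1, Cyp27a1, Slc10a1, Abcb11, Slco1b2 and Abcc2), and neither the other Slc10a1 window (chr12:80968656-80968955) nor any window of the other 5 held the D-box. On both strands, no window of the 6 genes held CAAGGTCA for NR5A2 (1.56% of all promoters), the D-box TTATGTAA (0.938%), the E-box CACGTG (7.15%) or the IR1 element of FXR (0.00913%), which says only that these letters are not there.

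Slc10a1 had 546, 532, 470.4, 584 and 695 CPM in the Rosa26 livers at 3 weeks, and 529, 558, 439, 565 and 559 in the HIRA livers. The log2 fold change of Slc10a1 at 3 weeks was -0.09 ± 0.21 (adjusted p by edgeR 0.963). That of Dbp in the same livers was 4.55 ± 0.79 (0.0251), and a link between these genes was not tested. At 6 months the Rosa26 livers had 584, 577, 487, 649.9 and 479 CPM, and the HIRA livers 324, 674, 225, 519 and 675. Both the lowest and highest of these 10 values were in HIRA livers, whose coefficient of variation was 42.2%, against 13.0% in the controls. The liver with the lowest value, HIRA replicate 3, was also the lowest of its group for Cyp7b1, Baat and Slco1b2. Its stellate cell markers summed to 568 CPM, against 153 to 269 in the other 4 livers of the group, with Col1a1, a collagen, at 97.5 against 6.81 to 19.7. Its hepatocyte markers had the lowest sum of the group (96719 CPM), and the part of these cells in its values was not tested. The 6-month log2 fold change of Slc10a1 was -0.20 ± 0.21 (adjusted p by edgeR 0.718), -0.35 ± 0.21 without HIRA replicate 5 (0.409) and -0.018 without HIRA replicate 3 (0.982).

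Slco1b2 encodes OATP1B2, a sodium-independent carrier of the basolateral membrane for unconjugated bile acids and drugs (ENSMUSG00000030236.10, chromosome 6, 141629518 to 141686646, plus strand). It had a mean of 645 ± 89.2 CPM in Rosa26 and 702 ± 50.2 in HIRA livers at 3 weeks, and 639 ± 67.2 against 585 ± 85.9 at 6 months (SD, n = 5). The guides differed on the log2 scale by 0.12 ± 0.11 at 3 weeks (adjusted p by edgeR 0.853) and -0.13 ± 0.11 at 6 months (0.639), or -0.20 ± 0.11 without HIRA replicate 5 (0.345). Neither uptake carrier differed between guides beyond its spread.

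Abcb11 encodes BSEP, the canalicular pump for bile salts (ENSMUSG00000027048.15, chromosome 2, 69238282 to 69342616, minus strand). The Rosa26 livers had 727, 591, 652, 632 and 726 CPM at 3 weeks and 663, 689, 508, 591 and 624 at 6 months. The HIRA livers had 669, 704, 795, 628 and 693 CPM at 3 weeks and 538, 566, 548, 546 and 489.6 at 6 months. Within HIRA 6 months these were the tightest values of any of the 10 genes, with a coefficient of variation of 5.33%. For Abcb11 the log2 fold change between guides was 0.07 ± 0.09 at 3 weeks (adjusted p by edgeR 0.918) and -0.19 ± 0.09 at 6 months (0.326), or -0.16 ± 0.10 without HIRA replicate 5 (0.407).

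Abcc2 encodes MRP2, the canalicular pump for bilirubin glucuronides and other conjugates (ENSMUSG00000025194.5, chromosome 19, 43782192 to 43840740, plus strand). Its mean was 389 ± 73.4 CPM in Rosa26 and 444 ± 24.4 in HIRA livers at 3 weeks, and 419.5 ± 26.4 against 439 ± 93.2 at 6 months (SD, n = 5). HIRA 6 months replicate 5 had 604 CPM and the other 4 livers 385 to 424. Its log2 fold change between guides was 0.19 ± 0.13 at 3 weeks (adjusted p by edgeR 0.754), 0.07 ± 0.13 at 6 months (0.871) and -0.08 ± 0.11 without that library (0.795).

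The library with Y-linked counts was the highest of its group for 8 of the 10 genes and the lowest for Abcb11. How often it was highest or lowest over all genes was not counted, so these counts cannot be set against that share. No other library led its group for more than 7, the count of Rosa26 3 weeks replicate 5. Among genes whose liver level is known to differ by sex, Cyp4a12a had 256 CPM in that library and at most 0.213 in the other 19, and Mup20 had 1725 CPM against 12.7 to 82.9. At 6 months without that library, Mup20 rose by 1.19 ± 0.29 on the log2 scale (adjusted p by edgeR 0.0383). Of the 6 sex-dependent genes listed, Mup20 was the only 1 that edgeR called in that fit (1.74% of all genes). There 3 of the 6 had a positive and 3 a negative log2 fold change, with a median of -0.18. Sult3a1, a sulfotransferase, had 0.196, 6.83, 0.207, 8.07 and 0.102 CPM in HIRA replicates 1 to 5 and 5.16 to 31.5 in the Rosa26 livers. Its log2 fold change without replicate 5 was -2.37 ± 0.65 (adjusted p by edgeR 0.0634), and DESeq2 called it lower.

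With time, 0 of the 10 genes passed the edgeR test in the Rosa26 livers, where 0.324% of all genes were called, and 0 in the HIRA livers, where 0.0656% were. DESeq2 called 1 in each arm, Cyp27a1 in the Rosa26 livers and Abcb11 in the HIRA livers, and limma-voom 0 in both. DESeq2 called 3.22% and 0.885% of the genes to which it gave an adjusted p in these comparisons, and limma-voom called 0.254% and 0.0306% of all genes. Unadjusted p-values under 0.05 were found for 1 of 10 in the Rosa26 livers (12.8% of all genes) and for 3 of 10 in the HIRA livers (8.95%). No gene of the 10 separated the times in the Rosa26 livers (3.5% of all genes), and 1 of 10, Abcb11, did in the HIRA livers (1.47%). The change of the guide effect between times was called for 0 of the 10, for 0% of all genes, and by DESeq2 and limma-voom for 0 of the 10. It had an unadjusted p under 0.05 for 0 of the 10 and for 6.62% of all genes. Without HIRA 6 months replicate 5 edgeR again called 0 of the 10 in the HIRA livers and 0 for the change of effect. The time comparisons also differ in the age of the mice at harvest, which cannot be told apart from the time since injection.

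From 3 weeks to 6 months in the HIRA livers, Abcb11 had a log2 fold change of -0.38 ± 0.09 (adjusted p by edgeR 0.140, and 0.00422 with DESeq2). All 5 HIRA livers at 6 months, at 489.6 to 566 CPM, were below all 5 at 3 weeks, at 628 to 795. In the Rosa26 livers the same comparison gave -0.11 ± 0.09 (adjusted p by edgeR 0.669), and the arms differed by -0.26 ± 0.13 (0.777). Without HIRA 6 months replicate 5 the Abcb11 values were -0.34 in the HIRA livers (adjusted p by edgeR 0.190) and -0.23 between arms (0.723). The other genes with an unadjusted p under 0.05 in the HIRA livers were Cyp7b1 and Slco1b2. For Cyp7b1 the value of 1.08 ± 0.41 (adjusted p by edgeR 0.431) became 0.046 without replicate 5 (0.962). For Slco1b2 the value of -0.26 ± 0.11 (adjusted p by edgeR 0.502) became -0.34 (0.282). Cyp27a1 had a log2 fold change of -0.40 ± 0.11 with time in the Rosa26 livers (adjusted p by edgeR 0.121, and 0.0325 with DESeq2) and of -0.15 ± 0.11 in the HIRA livers (0.765). Without Rosa26 6 months replicate 2, the highest of its group, the Cyp27a1 value in the Rosa26 livers was -0.49 (adjusted p by edgeR 0.0467). The arms differed by 0.25 ± 0.16 for Cyp27a1 (adjusted p by edgeR 0.825), so no difference between arms was shown for either gene.

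Ratios of counts within a library, which need no scaling between libraries, were taken as values without a test. They are not scaled to transcript length and are compared between livers only, not as levels of one gene against the other. The log2 count ratio of Cyp8b1 to Cyp7a1 was 1.42 ± 1.11 in Rosa26 and 1.22 ± 0.77 in HIRA livers at 3 weeks, and 1.18 ± 0.60 against 1.96 ± 1.58 at 6 months (SD, n = 5). The log2 count ratio of Cyp7b1 to Cyp7a1 was above 0 in HIRA 6 months replicates 1 and 5, at 0.96 and 2.76, and below 0 in every other library. Per kilobase of exon, Cyp7a1 exceeded Cyp7b1 in 14 of 20 libraries. The ratio of Slc10a1, for uptake, to Abcb11, for export, was -0.24 ± 0.19 in Rosa26 and -0.40 ± 0.27 in HIRA livers at 3 weeks. At 6 months it was -0.15 ± 0.20 in Rosa26 livers and -0.27 ± 0.72 in HIRA livers, where it ran from -1.28 in replicate 3 to 0.46 in replicate 5. The HIRA livers at 6 months had the widest spread in each ratio, but for Cyp8b1 to Cyp7a1 this rested on replicate 5. Without that library the SD there was 1.02, below that of the Rosa26 livers at 3 weeks. It was 1.59 for Cyp7b1 to Cyp7a1, against 2.24 with all 5 livers, and 0.69 for Slc10a1 to Abcb11.

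**Figure D3:**
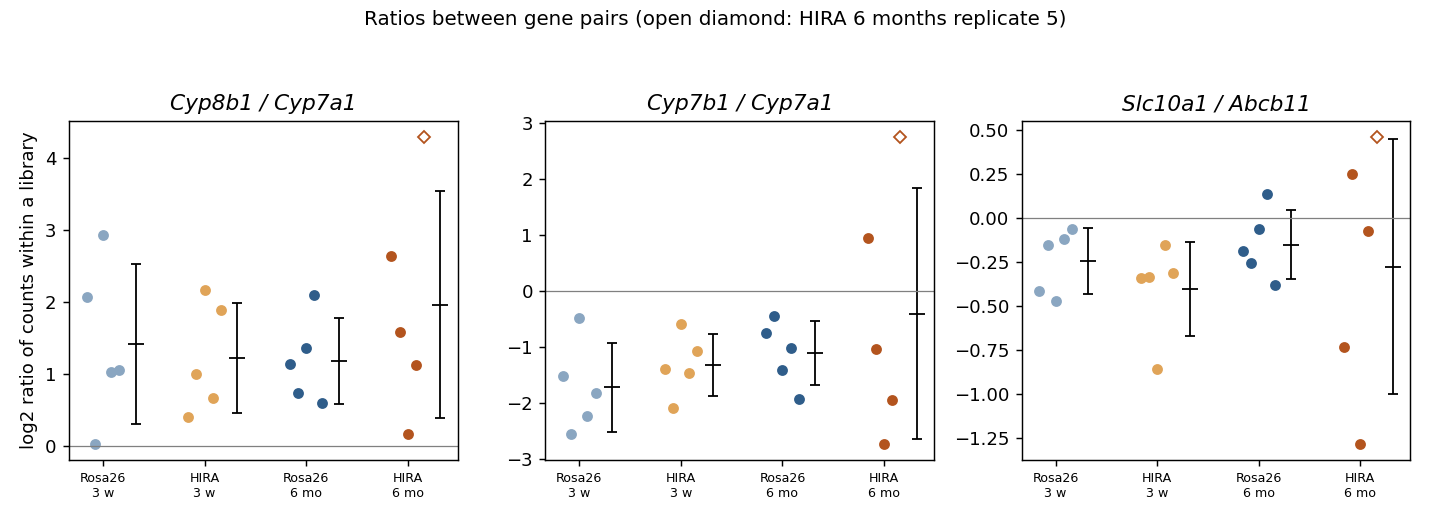
Log2 ratio of counts within each library for Cyp8b1 to Cyp7a1, Cyp7b1 to Cyp7a1 and Slc10a1 to Abcb11, by group. Dots are single livers, the open diamond is HIRA 6 months replicate 5, and bars give the mean and SD of 5 livers. The HIRA 6-month livers ran from -1.28 to 0.46 for Slc10a1 to Abcb11, and their spread for Cyp8b1 to Cyp7a1 falls from an SD of 1.58 to 1.02 without replicate 5.

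The patterns over the 20 libraries were also set against all other genes with a mean of at least 1 CPM, by the root mean square difference of log2 CPM after centring each gene on its own mean. The gene nearest to Slc27a5 was Rmdn1, at a difference of 0.08, against its own SD of 0.22. The nearest to Cyp7a1 were Acss2 (0.58), Zc2hc1a (0.60), Gm46516 (0.61), Hmgn2 (0.61) and Mpv17l (0.63), against an own SD of 0.89, so no gene followed Cyp7a1 closely. For the others they were Kif5a for Cyp8b1 (0.53), Gba2 for Cyp27a1 (0.11), Arsa for Cyp7b1 (0.27), Scrn3 for Baat (0.07), Haao for Slc10a1 (0.22), Uhrf1bp1l for Abcb11 (0.11), Orc5 for Slco1b2 (0.11) and Sord for Abcc2 (0.11). None of the 10 genes was the nearest to another of the 10.

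Other enzymes of bile acid synthesis were read from a list of 13 genes. At 6 months 1 of the 13 was called by edgeR, higher in HIRA livers, and 0 lower, against 1.31% of all genes. This was Cyp3a11, a drug-metabolizing cytochrome P450 that also hydroxylates bile acids. It had 1844, 1880.0, 1569, 1356 and 2050 CPM in the Rosa26 livers at 6 months and 4132, 2598, 4789, 2589 and 3498 in the HIRA livers. It rose by 1.02 ± 0.17 on the log2 scale (adjusted p by edgeR 0.0138), and by 1.02 ± 0.18 without HIRA replicate 5 (0.00985), and the groups did not overlap. Its 6-month call was kept without each of the 10 libraries in turn. At 3 weeks Cyp3a11 had 1551 to 2478 CPM in control and 2866 to 3918 in HIRA livers, without overlap, with a log2 fold change of 0.75 ± 0.17 (adjusted p by edgeR 0.0819). At 6 months DESeq2 called Cyp3a11 and, lower, Cyp2c70, the enzyme of muricholic acid synthesis in mice (6.22% of the genes with an adjusted p). Cyp3a11 was also called by limma-voom (1.3% of all genes). Cyp2c70 had 602 to 870 CPM in control and 304 to 694 in HIRA livers at 6 months (log2 fold change -0.52 ± 0.16, adjusted p by edgeR 0.104), or -0.38 ± 0.13 without HIRA replicate 5 (0.124), its lowest library. Without HIRA replicate 3 edgeR called Cyp2c70. The median of the 13 genes was 0.07 at 6 months and -0.11 at 3 weeks. At 3 weeks edgeR called 0 of the 13, limma-voom 0 and DESeq2 1, Cyp3a11 (1.56% of the genes with an adjusted p in DESeq2). Of the 13, 2 had an unadjusted edgeR p under 0.05 (8.87% of all genes). In the time comparisons edgeR, DESeq2 and limma-voom called 0 of the 13. Unadjusted edgeR p-values under 0.05 were found for 1 in the Rosa26 livers (12.8% of all genes) and 5 in the HIRA livers (8.95%). The smallest p belonged to Cyp39a1, an oxysterol hydroxylase, in the Rosa26 livers (-0.61 ± 0.21, adjusted p by edgeR 0.201) and to Acox2, an enzyme of side chain shortening, in the HIRA livers (0.38 ± 0.11, 0.255). For the change of the guide effect, 0 of the 13 were called by the same tools, 0 had an unadjusted p under 0.05, and Acot8, a peroxisomal thioesterase, came first (0.38 ± 0.19, adjusted p by edgeR 0.777).

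Other transporters of bile components were read from a list of 14 genes, of which edgeR called 0 at either time. Unadjusted p-values under 0.05 were found for 0 of the 14 at 3 weeks (8.87% of all genes) and 3 at 6 months (15.5% of all genes), and limma-voom called 0 at both. DESeq2 called 0 at 3 weeks and 1 at 6 months, Abcb4, the canalicular flippase that secretes phosphatidylcholine into bile. Abcb4 had 183, 185, 145, 151 and 143 CPM in the Rosa26 livers at 6 months and 259, 222, 231, 207 and 260.2 in the HIRA livers, which did not overlap. Its log2 fold change was 0.55 ± 0.14 (adjusted p by edgeR 0.0577), and 0.51 ± 0.15 without HIRA replicate 5 (0.0778). Without HIRA replicate 4 edgeR called it, together with Slco1a1, which was also called without HIRA replicate 2. At 3 weeks the smallest p was that of Atp8b1, a canalicular aminophospholipid flippase, at -0.31 ± 0.15 (adjusted p by edgeR 0.593). With time edgeR and limma-voom called 0 of the 14 in either arm. DESeq2 called 1 in the Rosa26 and 0 in the HIRA livers (3.22% and 0.885% of the genes with an adjusted p). Unadjusted edgeR p-values under 0.05 were found for 5 and 3 of the 14 (12.8% and 8.95% of all genes). First of all was Slc10a2, the apical bile acid carrier of ileum and bile ducts, at 1.22 ± 0.36 in the Rosa26 livers (adjusted p by edgeR 0.135) and 0.97 ± 0.36 in the HIRA livers (0.410). For the change of the guide effect the 3 tools called 0 of the 14, 2 had an unadjusted p under 0.05 (6.62% of all genes), and Slco1a1 came first at 3.97 ± 1.42 (adjusted p by edgeR 0.685). Slco1a1, an uptake carrier, had 139 CPM in HIRA 6 months replicate 5 and at most 3.17 in the other 4 livers of that group.

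Regulators of the pathway were read from a list of 12 genes, of which edgeR called 0 at either time and limma-voom also 0. Unadjusted edgeR p-values under 0.05 were found for 3 of the 12 at 3 weeks (8.87% of all genes) and 2 at 6 months (15.5%), a count near that over all genes at 6 months. DESeq2 called 0 at 3 weeks and 1 at 6 months, Nr5a2, a nuclear receptor that acts on Cyp7a1 and Cyp8b1. Nr5a2 had 62.3 to 74.5 CPM in the Rosa26 livers and 49.2 to 62.2 in the HIRA livers at 6 months, without overlap. Its log2 fold change was -0.29 ± 0.09 (adjusted p by edgeR 0.0964), and -0.32 ± 0.09 without HIRA replicate 5 (0.0689). At 3 weeks the smallest p was that of Nr0b2, the corepressor SHP, at -0.76 ± 0.28 (adjusted p by edgeR 0.372). With time edgeR and limma-voom called 0 of the 12 in either arm. DESeq2 called 2, Nr5a2 and Mafg, in the Rosa26 and 0 in the HIRA livers (3.22% and 0.885% of the genes with an adjusted p). Unadjusted edgeR p-values under 0.05 were found for 3 and 1 of the 12 (12.8% and 8.95% of all genes). The smallest p was that of Mafg, a repressor of bile acid genes, in the Rosa26 livers (0.39 ± 0.09, adjusted p by edgeR 0.0538, called without Rosa26 3 weeks replicate 5 or 6 months replicate 2) and that of Nr0b2 in the HIRA livers (0.64 ± 0.28, 0.510). For the change of the guide effect all 3 tools called 0 of the 12, 3 had an unadjusted p under 0.05 (6.62% of all genes), and Nr5a2 came first at -0.36 ± 0.12 (adjusted p by edgeR 0.685).

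**Figure D4:**
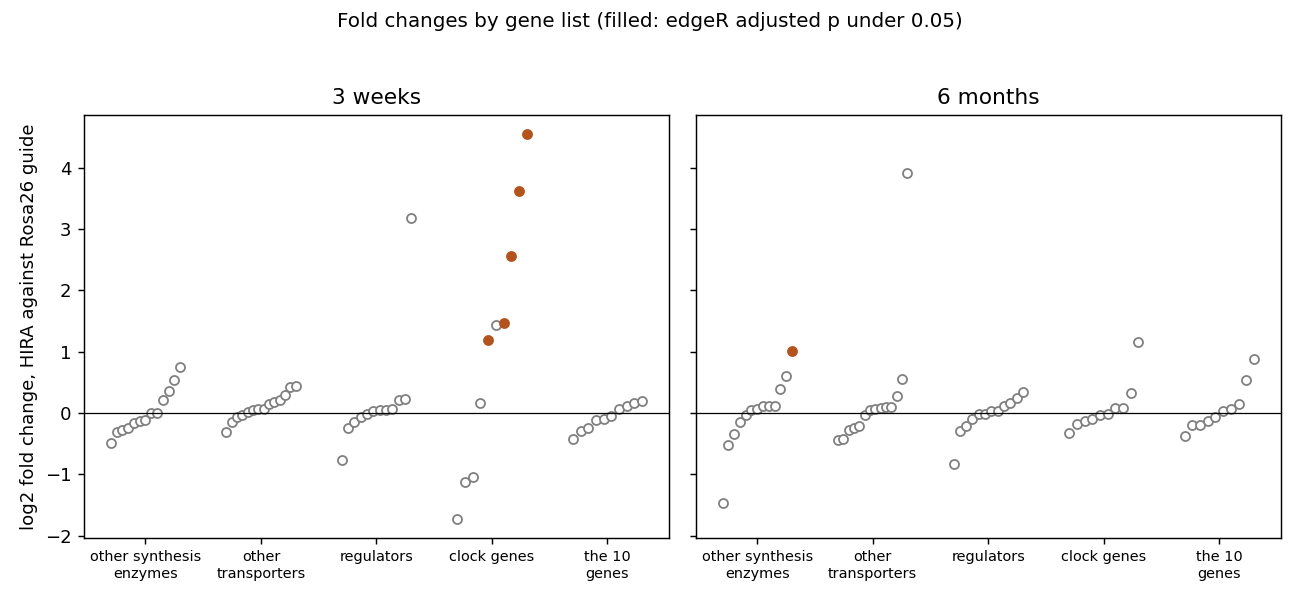
Log2 fold change, HIRA guide against Rosa26 guide, for each gene of the lists of other synthesis enzymes, other transporters, regulators and clock genes and for the 10 genes, at 3 weeks and at 6 months. Each circle is a gene, ordered by value within its list, and filled circles passed an edgeR adjusted p of 0.05. The filled circles are 5 clock genes at 3 weeks and Cyp3a11 at 6 months.

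The clock genes that rose in the HIRA livers at 3 weeks were Dbp, Tef (1.47 ± 0.29, adjusted p by edgeR 0.0412), Nr1d2 (1.19 ± 0.22, 0.0300), Per3 (2.56 ± 0.53, 0.0455) and Ciart (3.62 ± 0.71, 0.0379). From 3 weeks to 6 months in the Rosa26 livers, edgeR called 4 of the 10 clock genes, all higher, against 0.324% of all genes. They were Dbp (4.40 ± 0.79, adjusted p by edgeR 0.0227), Tef (1.35 ± 0.29, 0.0467), Nr1d2 (1.02 ± 0.22, 0.0467) and Per3 (2.69 ± 0.53, 0.0309). In that comparison DESeq2 called 6 of the 10, all higher (3.22% of the genes with an adjusted p), and limma-voom called 0 (0.254% of all genes). Of the 10, 9 had an unadjusted edgeR p under 0.05 (12.8% of all genes). Without 1 library, edgeR called 0 to 5 of the 10 in either comparison. At 3 weeks 0 were called without Rosa26 replicate 1, 2 or 4 or HIRA replicate 4 or 5. With time 0 were called without Rosa26 3 weeks replicate 1, 3 or 4 or Rosa26 6 months replicate 3 or 4. Both comparisons share the Rosa26 livers at 3 weeks, which had the lowest Dbp levels of the 4 groups. In the HIRA livers no clock gene was called over time by edgeR, DESeq2 or limma-voom, and 0 of the 10 had an unadjusted p under 0.05.

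Markers of the other liver cells were detected in all 4 groups. The summed level of 5 cholangiocyte markers was 68.5 to 127 CPM at 3 weeks and 46.8 to 153 at 6 months, that of 5 stellate cell markers 174 to 289 and 135 to 568, and that of 5 Kupffer cell markers 382 to 691 and 175 to 1811. That of 3 endothelial markers was 75.0 to 97.5 and 49.5 to 91.6, and that of 5 lymphocyte markers 11.2 to 23.95 and 9.50 to 53.8. In either guide comparison with all libraries edgeR, DESeq2 and limma-voom called 0 genes of these lists. Unadjusted edgeR p-values under 0.05 were found for 1 lymphocyte marker at 3 weeks and for 1 stellate and 1 endothelial marker at 6 months.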

How the data were processed

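Poly(A) RNA was sequenced from 20 bulk livers with a stranded kit (NEBNext Ultra II Directional). Per the labels and the study's methods, the authors trimmed reads with Trim Galore, aligned them with STAR to mm10 and made a table of raw counts per gene. The methods name HOMER for counting and the submitters' processing notes name HTSeq and Cufflinks. Whether counting used strand was not given in the sources used here. A deposited FPKM table, in which the authors scaled counts to gene length and library size, served only as an alternative.

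The members and gene lists were chosen with earlier results of these data known. Genes with at least 10 counts over 20 libraries (22867 of 55421) were tested with edgeR 4.0.16 (R 4.3.3), using quasi-likelihood tests, TMM factors, 1 mean per group over all libraries and Benjamini-Hochberg adjustment over all genes tested. A gene was called at an adjusted p under 0.05. Comparisons were the guides at each time, the times within each guide, the change of the guide effect, and the guides at 6 months without HIRA replicate 5 (19 libraries, 22703 genes). CPM were TMM-scaled, with a prior count of 2 in log2 values. The SE of an edgeR fold change was derived from its test, as its absolute log2 value divided by the square root of the F statistic.

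Alternatives were DESeq2 1.42.0, limma-voom (limma 3.58.1), other scaling and filters, only the samples of the comparison, a replicate block, log2 FPKM with a pseudocount of 1 or 0.1, and leaving out each library. Outside the members, listed genes were named where edgeR called them in any comparison or where they had the smallest p of their list in a comparison, beside the label checks and the genes of nearest pattern. Cyp2c70, Dcn and Stab2 were named after their values were seen, because DESeq2 called them, and Serpina1a because its unadjusted p was under 0.05. Gene positions came from GENCODE on GRCm38 (98.5% of identifiers matched) and promoters from RefSeq. Libraries held 19916430 to 24079736 counts, so counting error was small for the members beside the spread between livers. The 5 livers of a group are labelled as independent replicates. The scripts were tested on simulated data.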

Additional observations from a re-analysis of the deposited data

Results flagged for a closer look

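In 4 of the 40 combinations of gene and group, the highest or lowest of the 5 livers stood far from the rest, by the share of the group's range that lay between it and its nearest neighbour. Chance alone gives about 1 such group in 20. For Cyp7b1 in HIRA 6 months, replicate 5 was highest at 122 CPM and the gap took 0.835 of the range. For Abcc2 in the same group, replicate 5 was highest at 604 CPM, with a gap of 0.785. This is the library that held Y-linked counts and almost no Xist, and the part of that difference in both values was not tested. For Cyp7a1 in Rosa26 3 weeks, replicate 3 was lowest at 17.1 CPM, with a gap of 0.766. For Slc10a1 in HIRA 3 weeks, replicate 3 was lowest at 439 CPM, with a gap of 0.739.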

How the results depend on the processing

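Of 1120 alternative values for the 60 fold changes of the 10 genes, 1053 kept their direction and their side of the threshold, 9 passed it, 2 no longer passed it and 56 turned direction. The count of genes called moved from 0 to 1 at 6 months with DESeq2, limma-voom, no TMM factors, a filter of at least 1 CPM in 5 libraries and log2(FPKM + 1), in each case for Slc27a5 (adjusted p 0.00147, 0.0327, 0.0370, 0.0228 and 0.0378 by DESeq2, limma-voom, edgeR, edgeR and limma). It also moved from 0 to 1 with DESeq2 in both time comparisons. Leaving out single libraries gave 0 to 1 at 6 months (1 without HIRA replicate 5) and 0 to 1 with time in Rosa26 livers (1 without Rosa26 6 months replicate 2). Over all genes tested, the settings called 23 to 225 genes between guides at 3 weeks (45 in the report), 0 to 895 at 6 months (299), 6 to 1167 at 6 months without HIRA replicate 5 (395), 11 to 506 with time in Rosa26 livers (74) and 7 to 143 in HIRA livers (15). Single libraries moved these counts too: leaving out one gave 4 (without HIRA 3 weeks replicate 4 or 5) to 57 (HIRA 3 weeks replicate 3) genes at 3 weeks, 49 (Rosa26 6 months replicate 4) to 395 (HIRA 6 months replicate 5) at 6 months, 1 (Rosa26 3 weeks replicate 1) to 136 (Rosa26 6 months replicate 2) with time in Rosa26 livers, and 5 (HIRA 3 weeks replicate 2, 4 or 5) to 31 (HIRA 6 months replicate 3) in HIRA livers. Replicate numbers did not pair the samples (r over 0.1 in 14 of 30 same-numbered pairs, from -0.31 to 0.33, best match to the own number in 10 of 30). With the replicate block 0 of the 10 genes were called in any comparison, including 6 months without HIRA replicate 5, where the block and the fit of only the compared samples, both chosen after seeing the data, gave 0 in place of 1 (Slc27a5, adjusted p by edgeR 0.0586 and 0.165, and 0.000577 with DESeq2). Directions turned for Cyp7a1 at 6 months (-0.33 with limma-voom, -0.034 with the replicate block, -0.27 and -0.36 with log2(FPKM + 1) and log2(FPKM + 0.1)) and in its change of effect (-0.15, -0.14 and -0.23 with limma-voom and both FPKM settings). They turned for Cyp7a1 with time in HIRA livers (0.037, no TMM), Slco1b2 with time in Rosa26 livers (0.0017 without TMM, 0.013 with both FPKM settings) and Abcb11 at 3 weeks (-0.015 with both). Leaving out single libraries turned the direction within these ranges: for guides, Baat at 3 weeks -0.091 to 0.0059, and at 6 months Abcc2 -0.075 to 0.11, Cyp7a1 -0.40 to 0.32 and Cyp7b1 -0.15 to 1.10. With time in Rosa26 livers they were Abcc2 -0.0025 to 0.16, Baat -0.054 to 0.065, Slc10a1 -0.088 to 0.060 and Slco1b2 -0.065 to 0.068. With time in HIRA livers they were Abcc2 -0.16 to 0.031, Baat -0.077 to 0.041, Cyp7a1 -0.44 to 0.27 and Slc10a1 -0.28 to 0.059. For the change of effect they were Baat -0.086 to 0.043, Cyp7a1 -0.16 to 0.56, Cyp7b1 -0.31 to 0.93 and Slc10a1 -0.26 to 0.078. Apart from the omission of libraries, the cause was not tested. None of these turned values passed the threshold.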
